A study of Mus musculus with 15 samples.

Results

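Protein synthesis needs a set of soluble helper proteins, the eukaryotic initiation factors (gene names beginning Eif) and elongation factors (gene names beginning Eef). The transcripts of these factors were followed in mouse thymic fibroblasts, the connective tissue cells of the thymus, after sublethal irradiation of the animals. Members were all genes of the deposited count table whose names begin with Eif1 to Eif6 or with Eef1 or Eef2, except Eif2ak2. This gave 60 of 12763 genes, 48 with initiation factor names and 12 with elongation factor names. Enzymes that modify or inhibit a factor and carry its name are included. Eif4e, Eif2s1, Eif3j and Eif5b, which encode the cap-binding protein, the alpha subunit of eIF2, an eIF3 subunit and the joining GTPase eIF5B, were not analysed here.

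The mice were young male WT animals, and all groups shared that sex and genotype. Untreated age-matched mice gave 5 libraries, mice sampled 1 day after a sublethal dose of 425 rad gave 5, and mice sampled 3 days after that dose gave 5. Cells were sorted from dissociated thymus, with a gate given as CD45-EpCAM+CD34+CD31-PDGFRalpha+, and bulk 3′ end counts were made by MARS-seq, which tags each captured molecule with a unique molecular identifier (UMI). The labels do not say whether libraries of a group came from separate mice, so p-values measure the spread between libraries. The work belongs to a study of how the thymus regenerates after damage.

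Initiation runs in steps. The factor eIF2 brings the initiator tRNA to the small ribosomal subunit, eIF3 holds that complex together, the eIF4 factors bind the mRNA cap and unwind the leader, eIF1, eIF1A and eIF5 control start codon choice, and the large subunit then joins. Elongation is driven by eEF1A, which delivers aminoacyl-tRNA, by the eEF1B subunits that recharge it, and by eEF2, which moves the ribosome along. Cells throttle the process mainly at eIF2, through stress kinases, and at the cap, through 4E-binding proteins controlled by the kinase complex mTORC1. Many elongation factor and ribosomal protein mRNAs begin with a pyrimidine tract (TOP mRNAs) that places their translation under mTORC1.

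The start regions of 7 members are shown because their transcripts, or the ratio between them, carry the results below: the elongation factors Eef1a1, Eef2 and Eef1b2, the initiation factors Eif3f and Eif4b, all with a described TOP mRNA, and the X- and Y-linked copies of the eIF2 gamma subunit. Each line gives 40 bases before and 30 bases from the annotated start (RefSeq, GRCm38.p6), 5′ to 3′ on the gene's strand. Capitals mark a stretch of at least 8 pyrimidines counted from its first C.
Eef1a1: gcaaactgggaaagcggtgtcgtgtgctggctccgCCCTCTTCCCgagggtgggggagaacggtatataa
Eef2: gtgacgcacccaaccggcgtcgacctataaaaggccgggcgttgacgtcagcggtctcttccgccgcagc
Eef1b2: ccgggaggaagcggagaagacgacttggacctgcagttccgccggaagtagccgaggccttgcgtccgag
Eif3f: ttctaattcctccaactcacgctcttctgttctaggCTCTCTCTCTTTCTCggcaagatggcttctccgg
Eif4b: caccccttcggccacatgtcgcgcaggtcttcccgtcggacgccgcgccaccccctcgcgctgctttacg
Eif2s3x: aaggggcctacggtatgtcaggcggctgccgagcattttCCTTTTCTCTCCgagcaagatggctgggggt
Eif2s3y: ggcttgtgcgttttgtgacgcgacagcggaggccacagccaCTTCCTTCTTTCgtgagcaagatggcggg

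These windows lie at chr9:78481695-78481764 (minus strand) for Eef1a1, chr10:81176591-81176660 (plus) for Eef2, chr1:63176791-63176860 (plus) for Eef1b2, chr7:108934375-108934444 (plus) for Eif3f, chr15:102073733-102073802 (plus) for Eif4b, chrX:94212622-94212691 (minus) for Eif2s3x and chrY:1010555-1010624 (plus) for Eif2s3y. The marked stretch is 12 bases in Eif2s3x and Eif2s3y, 15 in Eif3f and 10 in Eef1a1, and in Eif2s3x further pyrimidines, all T, stand directly before it. The windows of Eef2, Eef1b2 and Eif4b hold no such run at the annotated start. That of Eef2 holds the unbroken pyrimidine stretch tctcttcc after the start, which is too short when counted from its first C. Promoters of 47 of the 60 members were matched. A pyrimidine run between 40 bases before and 50 bases after the start was present in 19 of 47 (40.43%), and in 25.81% of the promoters of all 27025 genes.

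Longer windows, 250 bases before to 50 after the start, were searched for letter strings on both strands. CGGAAG, the core letters of ETS-family sites, was in 25 of 47 member promoters (53.19%) and in 17.17% of all promoters. CACGTG, the E-box read by MYC and related proteins, was in 12 of 47 (25.53%) and in 7.24% of all. TATAAA was in 4 of 47 (8.51%) and in 14.16% of all, and TGATGNAA, the composite C/EBP-ATF letters, was in 1 of 47 (2.13%) and in 4.06% of all. The reference set takes in genes that are not expressed in these cells, and a match of letters is a description of the window.

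The libraries held 740169 to 3750214 UMIs each, and the shallowest was day 1 replicate 1. Levels are UMIs relative to library size (CPM), scaled by trimmed mean of M-values (TMM), with factors of 1.07 to 1.12 in untreated, 0.862 to 0.943 in day 1 and 0.992 to 1.02 in day 3 libraries. The marker levels in this paragraph are an exception: they are CPM of total UMIs without TMM scaling. The markers named higher or lower are from the tests with TMM scaling. The 10 fibroblast markers summed to 47094 to 57015 CPM in untreated, 10181 to 25025 CPM in day 1 and 37233 to 44143 CPM in day 3 libraries. Of these, 8 were lower and 1 higher at day 1, and 4 were lower and 1 higher at day 3. Cd34 was at 1609 to 1845, 288 to 602 and 929 to 1192 CPM, and Pdgfra at 280.4 to 402, 68.9 to 148 and 167 to 239 CPM, in the same order of groups. Epcam, named as positive in the gate, had 11, 10 and 10 UMIs in all libraries of each group. The other thymic epithelial markers counted were higher in both irradiated groups: Krt14 was at 0.781 to 6.005, 5.54 to 86.8 and 6.61 to 76.7 CPM, and Krt8 at 1.95 to 8.78, 13.5 to 128 and 19.3 to 61.98 CPM. Ptprc (CD45) had 35, 38 and 9 UMIs, and Pecam1 (CD31) had 35, 59 and 47. The 4 general leukocyte markers, which include Ptprc, summed to 31.9 to 87.5 CPM in untreated and 40.2 to 175 CPM in day 1 libraries. In day 3 libraries they summed to 11.2 to 14.95 CPM. Of these markers, 2 were higher and 0 lower at day 1 than in untreated cells. The 13 macrophage and dendritic cell markers summed to 141 to 577 CPM in untreated, 739 to 1286 CPM in day 1 and 80.8 to 163 CPM in day 3 libraries, and 8 of the 10 that could be tested were higher at day 1 than in untreated cells. The 6 mesothelial markers summed to 119 to 430, 405 to 2659 and 294 to 1425 CPM, with all 6 higher at day 1. The part of these cells in the results below was not tested, and in bulk RNA fewer cells of a type cannot be told apart from less RNA per cell.

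All factors together took 1.10% ± 0.0422 (SD, n = 5) of UMIs in untreated, 0.972% ± 0.0676 in day 1 and 1.15% ± 0.0341 in day 3 libraries. On the TMM scale the day 1 direction turned: the sums were 10011 ± 304 CPM in untreated, 10709.7 ± 509 CPM in day 1 and 11425 ± 323 CPM in day 3 libraries. A few genes made up much of this. Eef1a1, Eef2, Eef1b2 and Eif1 together held 45.0% of factor UMIs in the untreated group and 45.9% at day 3, and the 4 leading genes of day 1, with Eif5a in place of Eif1, held 39.7%. At the other end, Eif1ad, Eif4g2 and Eif5a2 had 28, 12 and 26 UMIs in all untreated libraries, 17, 15 and 14 at day 1 and 31, 15 and 14 at day 3, and did not pass the filter on low counts. The other 57 members were tested together with all 10207 genes that passed, by edgeR's quasi-likelihood test with Benjamini-Hochberg adjustment and a threshold of 0.05.

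**Figure D1:**
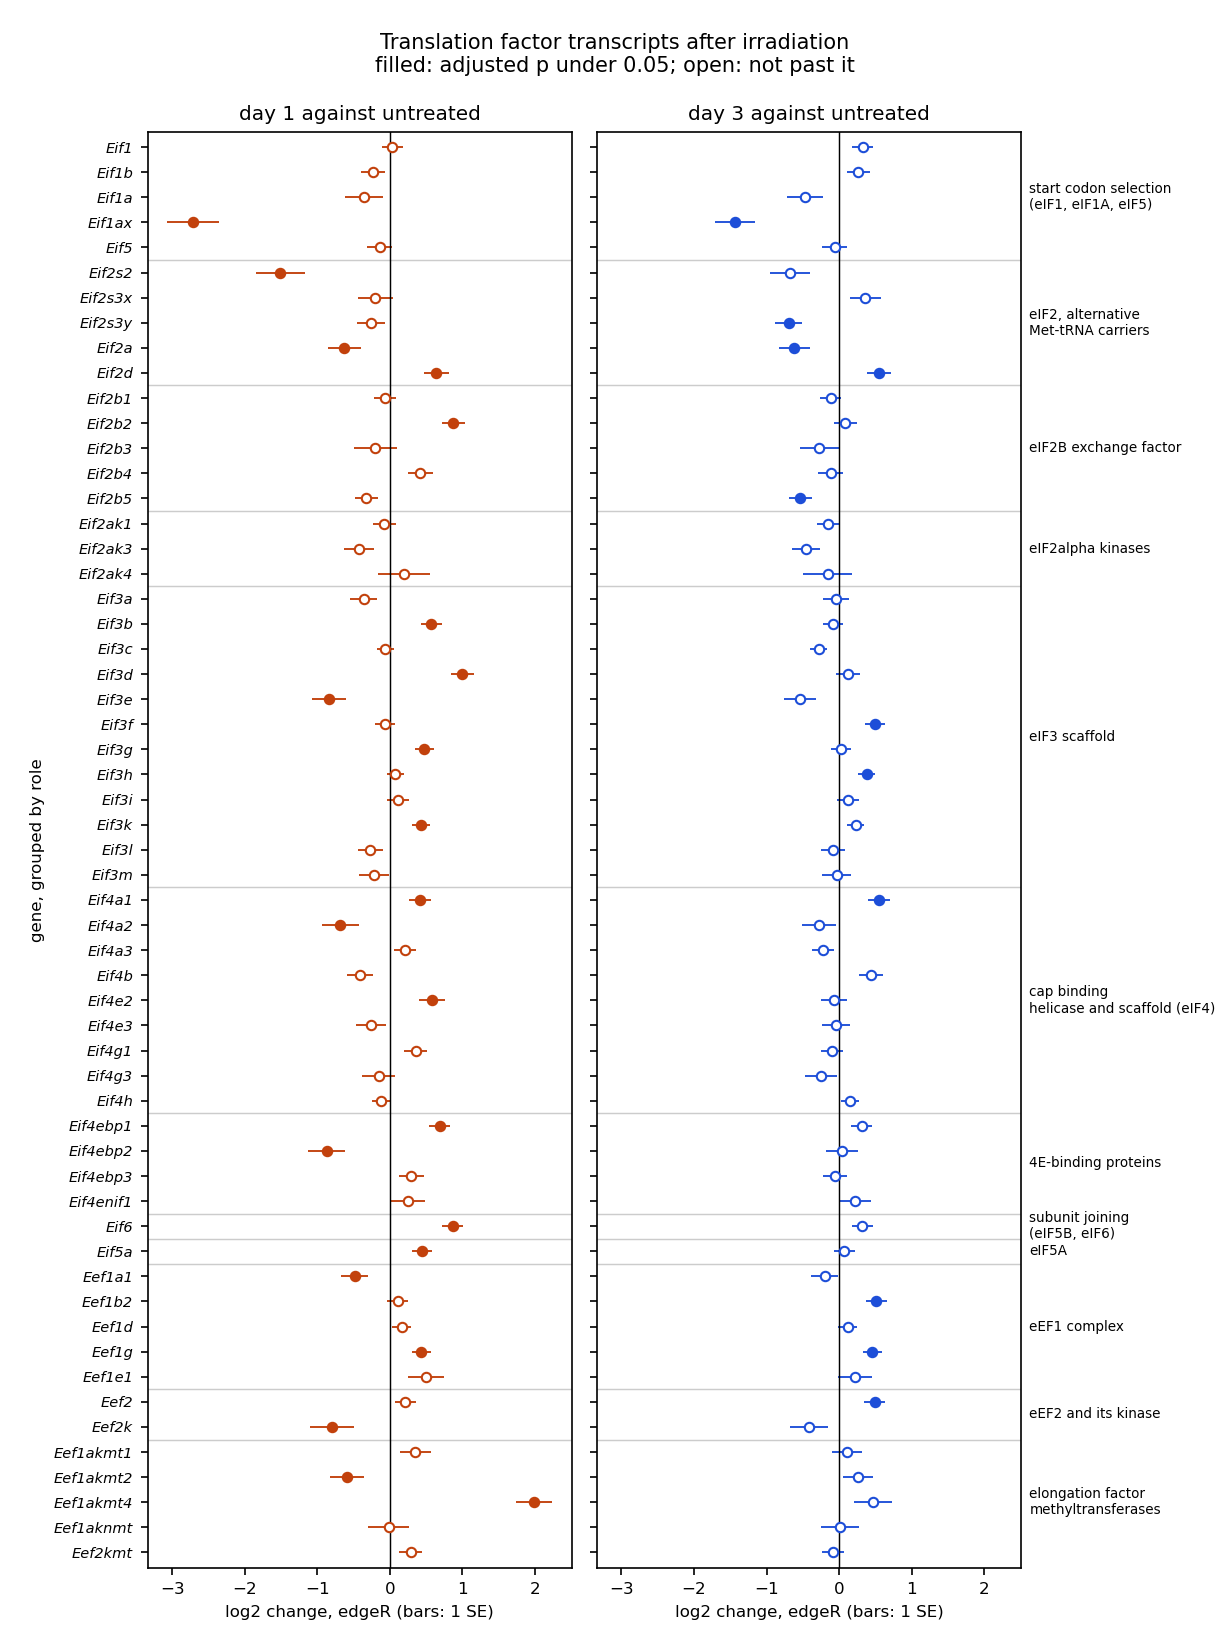
Log2 change of the 57 tested factors at day 1 and at day 3, each against untreated libraries (x axis), with genes grouped by role (y axis). Points are edgeR estimates from 5 libraries a group, bars are 1 SE, and filled points passed an adjusted p of 0.05. Eef1akmt4 at 1.99 and Eif1ax at -2.71 lie farthest from 0 at day 1, and fewer points are filled at day 3.

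At day 1, 13 factors were higher and 9 lower than in untreated fibroblasts, which is 38.6% of the 57. Across all genes tested the same rule called 46.2%, 23.1% higher and 23.1% lower. Of the factors 22.8% were higher, close to the share of all genes, and 15.8% were lower. Whether these shares differ was not tested. At day 3, 7 were higher and 4 lower than in untreated cells (19.3%), close to the 18.4% of all genes that were called, 9.2% higher and 9.25% lower. Between day 3 and day 1, 8 were higher and 12 lower at day 3 (35.1%), close to the 32.7% of all genes that were called, 16.1% higher and 16.6% lower. The median log2 change over the factors was -0.02, -0.03 and -0.04 in these comparisons, and over all genes -0.02, -0.01 and 0.01. Sizes were small too: 4 of 57 factors changed by at least 2-fold and passed the test at day 1, or 7.02%, and 21.7% of all genes did.

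With total counts as library sizes in place of TMM, the median of all genes moved by -0.27 at day 1 and by -0.12 at day 3, each against untreated, and by 0.15 between day 3 and day 1. The split of the factors then became 5 higher and 19 lower at day 1, 1 higher and 7 lower at day 3, and 13 higher and 6 lower between day 3 and day 1. Over all 10207 genes tested the split moved in the same directions, to 1500 higher and 3650 lower at day 1. It was 661 higher and 1433 lower at day 3, and 2308 higher and 1201 lower between day 3 and day 1. Higher calls were 29.1%, 31.6% and 65.8% of the calls over all genes, and 20.8%, 12.5% and 68.4% of those in the factors. No called factor changed sign under that scaling in any of the 3 comparisons, but among 57 factors the sign of 9, 6 and 9 changed. Changes are therefore given relative to the TMM centre. The calls that held under all 23 alternatives, including each refit without 1 library, were 9 of 22 at day 1 (Eef1akmt4, Eif1ax, Eif2b2, Eif2s2, Eif3d, Eif3e, Eif4ebp1, Eif4ebp2 and Eif6). They were 3 of 11 at day 3 (Eif1ax, Eif2s3y and Eif4a1), and 10 of 20 between day 3 and day 1 (Eef1akmt2, Eef1akmt4, Eif2b2, Eif3b, Eif3d, Eif3f, Eif4b, Eif4e2, Eif4ebp2 and Eif6). Some calls were lost under more alternatives than the refits without a library named below. Of the 23, day 1 calls were lost in 6 for Eef1a1, 8 for Eif4a2, 9 for Eef1akmt2 and 9 for Eef2k. At day 3 they were lost in 6 for Eif3h and 11 for Eif2a. Between day 3 and day 1 the losses were 7 for Eif4g1, 8 for Eif4a3, 15 for Eif4ebp1, 16 for Eif3h and 16 for Eif5a.

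Among the start codon factors, eIF1A stood out. Eif1ax, the X-linked gene for eIF1A, was at 6.78, 11.7, 12.9, 8.36 and 8.90 CPM in the untreated libraries, 3.14, 1.74, 0.804, 0.493 and 2.61 CPM at day 1, and 3.71, 2.96, 4.02, 3.61 and 4.10 CPM at day 3. Every day 1 and every day 3 library lay below every untreated library. Eif1ax fell by 2.71 at day 1 (adjusted p = 3.08e-06) and by 1.44 at day 3 (adjusted p = 0.00103) on the log2 scale. Counts behind this were 119 UMIs in the untreated group, 13 at day 1 and 56 at day 3, so single day 1 libraries rest on very few molecules. Day 3 was higher than day 1 (log2 change 1.28 ± 0.40 (SE), adjusted p = 0.0176), a call lost without day 1 replicate 3 or 4 (adjusted p = 0.0627 at most). Its autosomal relative Eif1a did not pass the test in any comparison, with mean levels of 28.01 CPM in untreated, 21.3 CPM in day 1 and 20.7 CPM in day 3 libraries. Neither did Eif1, at 756, 774 and 947 CPM, nor Eif5, the GTPase activator of eIF2, at 76.6, 68.7 and 73.1 CPM. Eif1b, a second eIF1 gene, was higher at day 3 than at day 1 (log2 change 0.49 ± 0.16 (SE), adjusted p = 0.022), a call that was lost without day 1 replicate 2 or day 3 replicate 1 (adjusted p = 0.063 at most).

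The eIF2 group moved in both directions. Eif2s2, the beta subunit of eIF2, was at 6.78, 10.9, 13.6, 7.02 and 9.75 CPM in the untreated libraries, 1.57, 3.48, 3.21, 4.93 and 2.61 CPM at day 1, and 5.56, 9.94, 4.52, 3.61 and 6.49 CPM at day 3. The day 1 libraries were all below the untreated ones (log2 change -1.51 ± 0.33 (SE), adjusted p = 8.77e-04), and the day 3 libraries overlapped them (-0.67 ± 0.28 (SE), adjusted p = 0.0939). Eif2d, a factor that binds initiator tRNA outside the eIF2 route and acts in ribosome recycling, was at 21.2, 28.6, 30.4, 23.7 and 29.2 CPM in the untreated libraries, 53.3, 43.02, 45.01, 41.4 and 30.7 CPM at day 1, and 37.1, 35.5, 35.7, 35.5 and 52.6 CPM at day 3. It was above every untreated library in both irradiated groups, by 0.64 ± 0.17 log2 units (SE) at day 1 and 0.54 ± 0.17 at day 3, with adjusted p-values of 0.00414 and 0.0252. The day 3 call was lost without day 3 replicate 5, the highest library, or without untreated replicate 4 (adjusted p = 0.102 at most), and both calls were lost with total counts. Eif2a, an alternative carrier of initiator tRNA and not the eIF2 alpha subunit, was lower at day 1 (26.6 CPM, against 41.9 CPM in untreated cells) and at day 3 (27.1 CPM). Its adjusted p-values were 0.0284 and 0.0496, and leaving out single libraries ended the first call in 5 and the second in 10 of 15 refits.

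The gamma subunit of eIF2 is encoded by an X-linked and a Y-linked gene in mice. Eif2s3y was at 30.5, 28.96, 25.8, 28.8 and 24.2 CPM in the untreated libraries, 14.1, 30.4, 22.5, 20.7 and 22.9 CPM at day 1, and 10.8, 19.4, 16.6, 18.03 and 20.1 CPM at day 3. All day 3 libraries lay below all untreated ones (log2 change -0.69 ± 0.19 (SE), adjusted p = 0.0126), and the day 1 libraries overlapped them. Eif2s3x was at 15.2, 12.9, 11.5, 8.03 and 8.05 CPM in the untreated libraries, 7.84, 7.39, 10.05, 11.8 and 9.15 CPM at day 1, and 13.3, 18.01, 10.05, 12.8 and 14.7 CPM at day 3, with overlapping groups and no call. The other Y-linked genes with a value in this fit were not called at day 3: Ddx3y averaged 61.8 ± 18.2 CPM, against 89.2 ± 22.5 CPM in untreated libraries (SD, n = 5 each; log2 change -0.54, adjusted p = 0.203), and Uty had a log2 change of -0.23 (adjusted p = 0.743).

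The exchange factor eIF2B recharges eIF2 with GTP, and its activity is blocked when eIF2 is phosphorylated. Eif2b2, its beta subunit, was at 38.1, 33.8, 28.7, 33.4 and 40.7 CPM in the untreated libraries, 72.1, 56.1, 57.1, 67.5 and 69.3 CPM at day 1, and 49.1, 28.8, 32.2, 38.3 and 35.9 CPM at day 3. Day 1 stood above both other groups in every library, with log2 change 0.88 ± 0.16 (SE), adjusted p = 1.47e-04 against untreated and log2 change -0.79 ± 0.16 (SE), adjusted p = 5.68e-04 for day 3 against day 1. Eif2b4, the delta subunit, averaged 22.3 CPM in untreated, 30.9 CPM in day 1 and 20.7 CPM in day 3 libraries, and was lower at day 3 than at day 1 (adjusted p = 0.021). That call was lost without day 3 replicate 1 or 2 (adjusted p = 0.0649 at most), with total counts (adjusted p = 0.0825) and in the fit of only the groups compared. Eif2b5, the catalytic epsilon subunit, was at 21.2, 24.5, 27.6, 27.1 and 28.8 CPM in the untreated libraries, 17.2, 22.6, 21.3, 22.7 and 18.3 CPM at day 1, and 19.2, 14.2, 18.6, 18.6 and 19.8 CPM at day 3. It was lower at day 3 than in untreated cells (log2 change -0.53 ± 0.15 (SE), adjusted p = 0.0189), with no overlap, and day 3 replicate 2 was the lowest library. Without it the adjusted p was 0.0548. Eif2b1 and Eif2b3 passed no test. The 3 eIF2 alpha kinases in the set were not called in any comparison: Eif2ak1 (HRI) averaged 20.4, 19.6 and 18.7 CPM in untreated, day 1 and day 3 libraries, Eif2ak3 (PERK) 23.4, 17.5 and 16.6 CPM, and Eif2ak4 (GCN2) 4.10, 4.91 and 3.84 CPM.

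The eIF3 complex binds the small subunit and organises the other factors on it. Of its 12 tested genes, 4 were higher and 1 lower at day 1, 2 were higher at day 3 against untreated, and 2 were higher and 3 lower at day 3 against day 1. Over all genes the shares were 23.1% higher and 23.1% lower at day 1, 9.2% higher at day 3 against untreated, and 16.1% higher and 16.6% lower at day 3 against day 1. Eif3d, the subunit that can itself bind the cap of some mRNAs, was at 83.8, 96.9, 88.5, 93.97 and 80.9 CPM in the untreated libraries, 260.3, 161, 166, 174 and 139.8 CPM at day 1, and 83.8, 92.99, 125, 102 and 81.6 CPM at day 3. Day 1 was above both other groups in all libraries (2.004-fold over untreated, adjusted p = 3.91e-05), and day 1 replicate 1 was the highest by a wide margin. Day 3 was back below day 1 (adjusted p = 2.47e-04). Eif3b, a core subunit, was at 72.8, 89.3, 97.8, 97.6 and 109 CPM in the untreated libraries, 158, 126, 144, 147 and 125 CPM at day 1, and 94.6, 77.1, 103, 83.8 and 82.3 CPM at day 3. It followed the same course, with log2 changes of 0.58 ± 0.14 (SE) at day 1 and -0.66 ± 0.14 for day 3 against day 1 (adjusted p = 0.00187 and 8.33e-04). Eif3g and Eif3k were also higher at day 1, at 212 CPM, against 153 CPM in untreated cells, and at 389.9 CPM, against 288 CPM. The day 1 calls of Eif3b, Eif3g and Eif3k were lost with total counts (adjusted p = 0.0722, 0.181 and 0.259).

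Other eIF3 subunits took another course. Eif3e was at 36.1, 100.4, 52.6, 56.7 and 122 CPM at day 1, against 124, 136, 162, 142 and 106 CPM in untreated libraries, and was lower (log2 change -0.84 ± 0.23 (SE), adjusted p = 0.00568) although 1 day 1 library reached into the untreated range. Eif3f was at 527, 482, 493, 403 and 438 CPM in the untreated libraries, 325, 433, 488, 522 and 465 CPM at day 1, and 634, 714, 596, 684 and 677 CPM at day 3. Day 3 was above both other groups in every library, by 0.50 ± 0.14 log2 units (SE) over untreated and 0.56 ± 0.14 over day 1 (adjusted p = 0.0164 and 0.00367). The call against untreated was lost without untreated replicate 4 (adjusted p = 0.0527) and with total counts. Eif3h was at 256, 269, 270.0, 251.8 and 242 CPM in the untreated libraries, 276, 273, 268, 275 and 267 CPM at day 1, and 309.7, 333, 318, 366 and 351 CPM at day 3, and no day 3 library overlapped either other group. Its changes were small (0.38 ± 0.12 (SE) against untreated, adjusted p = 0.0239; 0.30 ± 0.12 against day 1, adjusted p = 0.0475) and were lost in 4 and 12 of 15 refits that left out a library. Eif3a, Eif3c, Eif3i, Eif3l and Eif3m were not called in any comparison, with mean levels between 27.8 CPM (Eif3a, day 1) and 276 CPM (Eif3i, day 3).

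Cap binding and unwinding is done by eIF4F: the cap-binding protein eIF4E, the helicase eIF4A and the scaffold eIF4G. Eif4a1, the main helicase gene, was at 276, 233, 193, 189.9 and 193 CPM in the untreated libraries, 325, 235, 324, 293 and 274 CPM at day 1, and 339, 377, 246, 306 and 317 CPM at day 3. The highest untreated library reached into both irradiated ranges. Eif4a1 was higher in both irradiated groups (log2 change 0.42 ± 0.15 (SE), adjusted p = 0.027 at day 1, and log2 change 0.55 ± 0.15 (SE), adjusted p = 0.0142 at day 3). The day 3 call held in all alternatives, and the day 1 call was lost with total counts and in 5 of 15 refits without 1 library. Eif4a2, its close paralog, was at 45.7, 26.6, 21.5, 42.8 and 18.6 CPM in the untreated libraries, 12.5, 22.2, 18.1, 14.8 and 24.8 CPM at day 1, and 34.00, 28.2, 17.1, 22.5 and 22.5 CPM at day 3. It was lower at day 1 (log2 change -0.68 ± 0.26 (SE), adjusted p = 0.0347), with overlap between groups and the call lost in 5 of 15 such refits. Eif4a3, the helicase of the exon junction complex, was lower at day 3 (81.4 CPM) than at day 1 (109 CPM; adjusted p = 0.0327, lost in 5 of 15 refits).

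Eif4b, which stimulates the helicase, was at 56.7, 66.8, 66.6, 63.5 and 60.2 CPM in the untreated libraries, 53.3, 48.2, 67.5, 34.98 and 32.7 CPM at day 1, and 90.6, 97.02, 65.8, 94.6 and 78.5 CPM at day 3. Day 3 was higher than day 1 (log2 change 0.85 ± 0.18 (SE), adjusted p = 7.66e-04) with 1 day 1 library inside the day 3 range, and neither differed from untreated libraries past the threshold (adjusted p = 0.0641 at day 1 and 0.0733 at day 3). Eif4e2, a cap-binding protein that competes with eIF4E and represses translation, was at 81.3, 114, 122, 106 and 149.6 CPM in the untreated libraries, 105, 185, 155, 226 and 182 CPM at day 1, and 108, 119, 98.5, 110.1 and 112 CPM at day 3. It was higher at day 1 (log2 change 0.58 ± 0.17 (SE), adjusted p = 0.00927; lost with total counts, adjusted p = 0.142) and lower at day 3 than at day 1 (log2 change -0.65 ± 0.17 (SE), adjusted p = 0.0061). Eif4g1, the scaffold, was at 141, 165, 251, 196 and 170.4 CPM at day 3, against 314, 265, 231, 239 and 218 CPM at day 1 and 157, 205, 195, 209 and 217 CPM in untreated libraries. It was lower at day 3 than at day 1 (adjusted p = 0.0303), a call lost in 4 of 15 refits without a library and with total counts, and every day 1 library was above every untreated one without passing the test (adjusted p = 0.0676). Eif4g3, Eif4h and Eif4e3 were not called.

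The 4E-binding proteins hold eIF4E away from eIF4G until mTORC1 phosphorylates them. Eif4ebp1 was at 164, 99.8, 127, 103 and 125 CPM in the untreated libraries, 213, 192, 172, 227 and 191 CPM at day 1, and 176, 147, 137, 146 and 159 CPM at day 3. All day 1 libraries exceeded all untreated ones (log2 change 0.69 ± 0.15 (SE), adjusted p = 6.28e-04). Day 3 was lower than day 1 at the edge of the threshold (adjusted p = 0.0499), a call lost in 12 of 15 refits without a library. Eif4ebp2 ran the other way. It was at 16.1, 14.5, 18.3, 21.1 and 19.1 CPM in the untreated libraries, 3.14, 6.95, 14.9, 11.3 and 8.49 CPM at day 1, and 16.4, 22.8, 23.1, 13.6 and 16.7 CPM at day 3, lower at day 1 than in untreated cells (log2 change -0.87 ± 0.25 (SE), adjusted p = 0.0074) and higher at day 3 than at day 1 (log2 change 0.90 ± 0.25 (SE), adjusted p = 0.00715). Eif4ebp3 and Eif4enif1, which carries eIF4E to sites of mRNA storage, were not called.

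**Figure D2:**
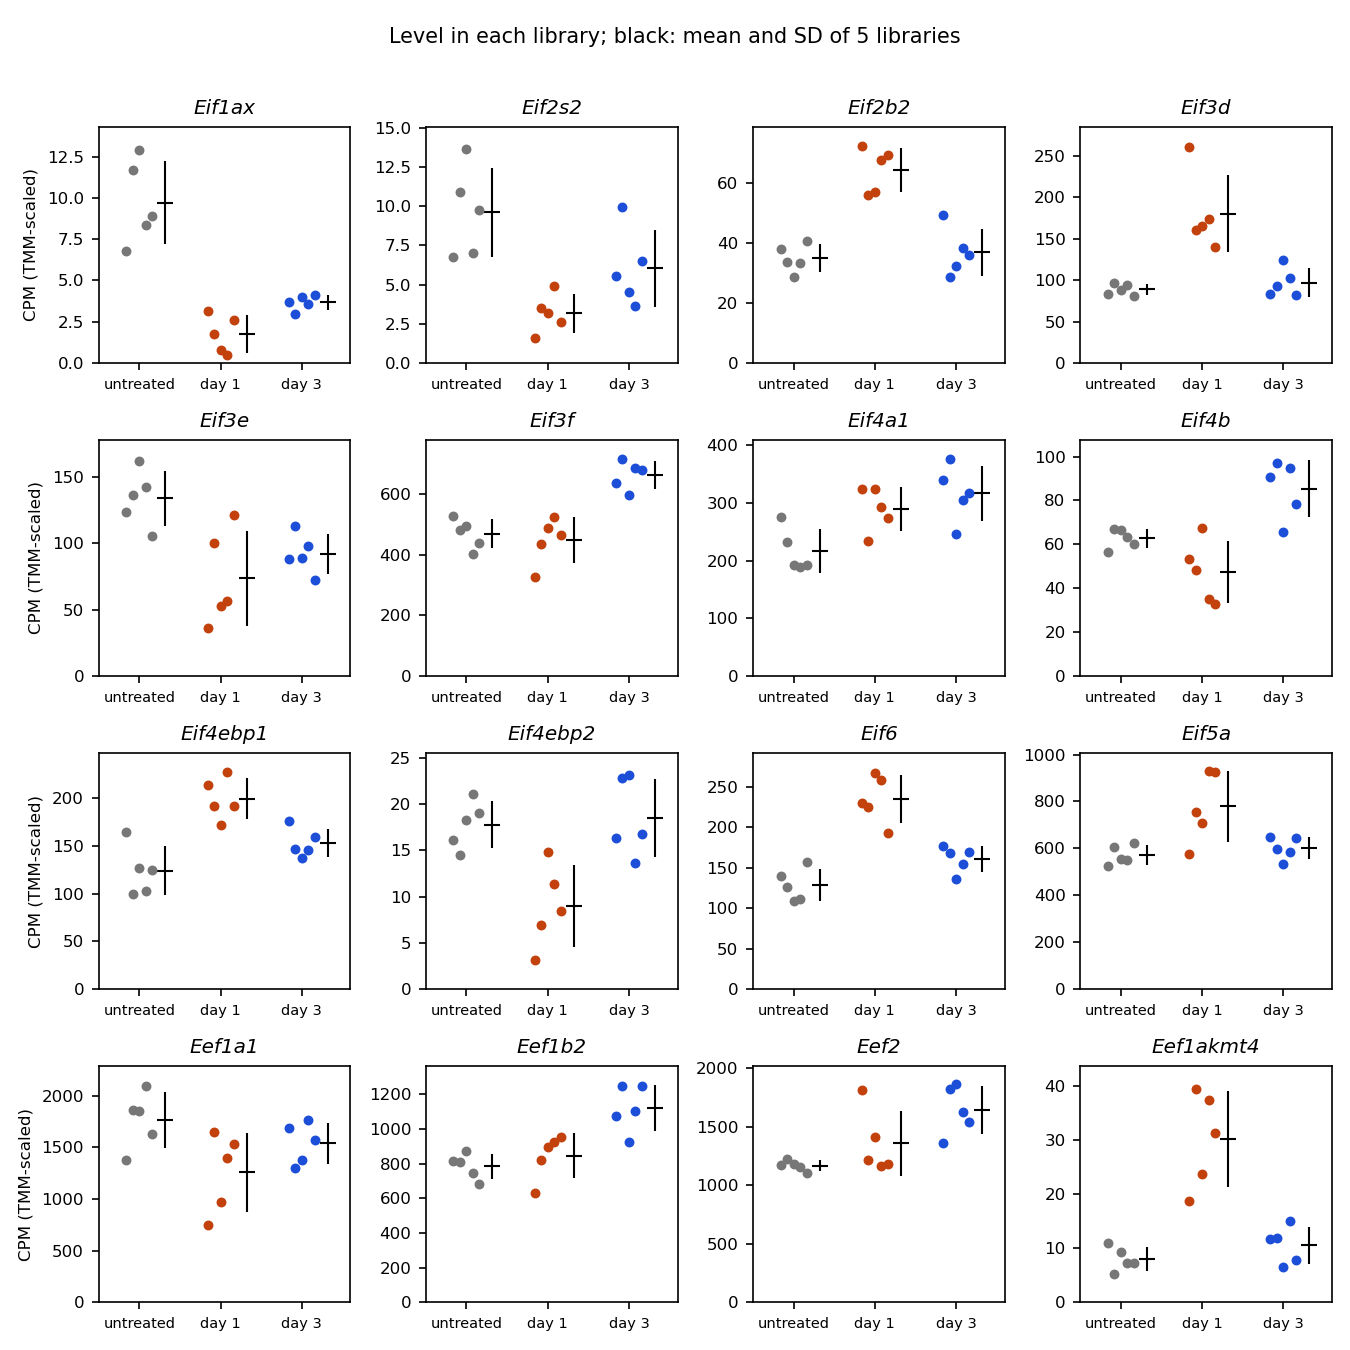
CPM (TMM-scaled, linear y axes from 0) of 16 factors in each of the 15 libraries, grouped as untreated, day 1 and day 3 (x axes). Points are libraries, and black marks are the mean and SD of 5 libraries. Eif2b2, Eif3d and Eef1akmt4 stand highest at day 1, Eif1ax lowest at day 1, and Eif3f highest at day 3, with no overlap between that group and the untreated libraries.

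Eif6 encodes the factor that keeps the large ribosomal subunit from joining too early. It was at 139.7, 127, 109.6, 112 and 157 CPM in the untreated libraries, 230.5, 225, 268, 259 and 193 CPM at day 1, and 176, 168, 137, 154 and 169 CPM at day 3. Every day 1 library was above every other library (log2 change 0.87 ± 0.14 (SE), adjusted p = 3.79e-05 against untreated), and day 3 was lower than day 1 (log2 change -0.55 ± 0.14 (SE), adjusted p = 0.00443). Eif5a encodes the hypusine-bearing factor that helps ribosomes through slow peptide bonds, and was at 527, 607, 556, 549 and 625 CPM in the untreated libraries, 577, 757, 708, 930.3 and 926 CPM at day 1, and 649, 598, 535, 585 and 644 CPM at day 3. It was higher at day 1 (779.6 CPM, against 573 CPM in untreated cells, adjusted p = 0.0134), with day 1 replicate 1 inside the untreated range and the call lost with total counts (adjusted p = 0.313). It was lower at day 3 than at day 1 (adjusted p = 0.0465), a call lost in 12 of 15 refits without a library.

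The 12 genes with elongation factor names held 46.4% of factor UMIs in untreated, 43.1% in day 1 and 47.4% in day 3 libraries. Eef1a1, the carrier of aminoacyl-tRNA, was at 1378, 1863, 1856, 2092 and 1631 CPM in the untreated libraries, 749, 1646, 972, 1399 and 1531 CPM at day 1, and 1689.9, 1299, 1375, 1761 and 1572 CPM at day 3. Its day 1 mean of 1259.6 CPM was lower than the untreated mean of 1764 CPM (log2 change -0.48 ± 0.19 (SE), adjusted p = 0.039), but groups overlapped, and the call was lost without untreated replicate 2, 3 or 4 or day 1 replicate 1 or 3 (adjusted p = 0.0712 to 0.0999). Eef1b2, an exchange subunit for eEF1A, was at 812, 811, 871, 745 and 679 CPM in the untreated libraries, 629, 819, 896, 924 and 952 CPM at day 1, and 1071, 1249, 926, 1105 and 1246 CPM at day 3. Day 3 was above every untreated library (log2 change 0.51 ± 0.14 (SE), adjusted p = 0.0154) and higher than day 1 (log2 change 0.41 ± 0.14 (SE), adjusted p = 0.0327). The second call was lost in 5 of 15 refits without a library and in the fit with the replicate number as a block, and the first was lost with total counts (adjusted p = 0.0592).

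Eef1g, the gamma subunit of the same exchange complex, was at 572, 462, 521, 481 and 488 CPM in the untreated libraries, 601, 623, 696, 820.4 and 665 CPM at day 1, and 693, 733, 609.9, 717 and 712 CPM at day 3. Both irradiated groups lay above all untreated libraries, by 0.43 ± 0.13 log2 units (SE) at day 1 and 0.46 ± 0.13 at day 3 (adjusted p = 0.00892 and 0.0167). Neither call held with total counts, and the day 3 call was lost without untreated replicate 2 (adjusted p = 0.0501). Eef1d, another exchange subunit, and Eef1e1, a member of the multisynthetase complex, were not called. Eef2, the translocase, was at 1169.6, 1228, 1185, 1157 and 1101 CPM in the untreated libraries, 1817, 1218, 1414, 1163 and 1178 CPM at day 1, and 1363, 1825, 1866, 1626 and 1539 CPM at day 3. Day 3 was above every untreated library (log2 change 0.49 ± 0.15 (SE), adjusted p = 0.0224). That call was lost without untreated replicate 4 or 5 or day 3 replicate 2 or 3 (adjusted p = 0.0501 to 0.0549) and with total counts. Eef2k, the kinase that switches eEF2 off, was lower at day 1 (3.55 CPM, against 5.997 CPM in untreated cells; adjusted p = 0.0354), from 30 UMIs at day 1 and 69 in the untreated group, and lost the call in 5 of 15 refits.

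Among the methyltransferases that modify elongation factors, Eef1akmt4 had the largest rise of the 57 factors at day 1. It was at 11.01, 5.23, 9.31, 7.36 and 7.20 CPM in the untreated libraries, 18.8, 39.5, 23.7, 37.4 and 31.4 CPM at day 1, and 11.7, 11.8, 6.53, 14.98 and 7.85 CPM at day 3. Day 1 was above both other groups in all libraries (log2 change 1.99 ± 0.25 (SE), adjusted p = 1.72e-06 against untreated; log2 change -1.52 ± 0.23 (SE), adjusted p = 3.43e-05 for day 3 against day 1). Eef1akmt4 overlaps exons of Alg3 on the opposite strand and of Gm49333 on its own strand in GENCODE vM21, and the sources used here do not say whether counting used strand. Alg3 changed by 0.47 on the log2 scale at day 1 (adjusted p = 0.0437) and by -0.99 between day 3 and day 1 (adjusted p = 0.000313). Eef1akmt2 was at 25.4, 18.1, 15.04, 14.4 and 16.1 CPM in the untreated libraries, 9.41, 10.9, 13.7, 10.3 and 11.8 CPM at day 1, and 31.5, 19.9, 15.1, 15.8 and 20.8 CPM at day 3. It was higher at day 3 than at day 1 (log2 change 0.85 ± 0.23 (SE), adjusted p = 0.00568), and its lower level at day 1 against untreated (adjusted p = 0.0438) was lost in 7 of 15 refits without a library. Eef1akmt1, Eef1aknmt and Eef2kmt were not called.

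Of the 60 members, 59 had a position in GENCODE vM21 (GRCm38), and 15 of these share exon sequence with a gene on the opposite strand and 11 with a gene on the same strand. Among the members with calls, Eif2d overlaps Rassf5, Eef1b2 overlaps Ndufs1, Eif4a2 overlaps Rfc4, Eif2b4 overlaps Snx17 and Eif2a overlaps Serp1 on the opposite strand. Eif3d overlaps Gm17638, Eif6 overlaps Gm16098, Eif1b overlaps D830035M03Rik and Eef2k overlaps Gm15774 on the opposite strand, and these partners are not in the count table. Ndufs1 fell by 0.68 on the log2 scale at day 3 against untreated (adjusted p = 0.00622), the direction opposite to that of Eef1b2.

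Ratios between related factors within a library do not depend on how libraries are scaled. For 7 pairs, the log2 ratio of UMIs (0.5 added to each) was compared between groups by an exact two-sided permutation test over all assignments of 5 against 5 libraries, which cannot go below p = 0.00794. Adjustment was over the 21 tests. The log2 ratio of Eif4a1 to Eif4a2 was 2.58, 3.12, 3.16, 2.15 and 3.36 in untreated libraries, 4.61, 3.39, 4.15, 4.29 and 3.45 at day 1 and 3.31, 3.73, 3.83, 3.76 and 3.81 at day 3. It was higher at day 1 without overlap (difference 1.10 on the log2 scale, exact permutation p = 0.00794, adjusted p = 0.0278) and at day 3 with overlap (difference 0.81 on the log2 scale, exact permutation p = 0.0159, adjusted p = 0.0417). The log2 ratio of Eif4ebp1 to Eif4ebp2 was 3.32, 2.77, 2.79, 2.28 and 2.70 in untreated libraries, 5.77, 4.74, 3.51, 4.29 and 4.44 at day 1 and 3.41, 2.68, 2.56, 3.41 and 3.23 at day 3. Day 1 stood above all other libraries (difference 1.78 on the log2 scale, exact permutation p = 0.00794, adjusted p = 0.0278 against untreated, and difference -1.50 on the log2 scale, exact permutation p = 0.00794, adjusted p = 0.0278 for day 3 against day 1).

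The log2 ratio of Eif2s3x to Eif2s3y was -0.98, -1.16, -1.16, -1.82 and -1.56 in untreated libraries, -0.79, -2.01, -1.15, -0.79 and -1.29 at day 1 and 0.29, -0.10, -0.71, -0.49 and -0.45 at day 3. Day 3 was above all other libraries (difference 1.04 on the log2 scale, exact permutation p = 0.00794, adjusted p = 0.0278 against untreated, and difference 0.91 on the log2 scale, exact permutation p = 0.00794, adjusted p = 0.0278 against day 1), so the balance of the 2 gamma subunit genes shifted toward the X-linked copy. Eif2s3x has 1 named pseudogene in the annotation, with which its reads could be divided. For Eif1a to Eif1ax the log2 ratio was 0.77, 1.60, 1.45, 1.36 and 1.96 in untreated libraries, 0.85, 3.65, 4.34, 4.95 and 3.52 at day 1 and 2.37, 2.84, 2.32, 2.54 and 2.15 at day 3. It was higher at day 3 without overlap (difference 1.02 on the log2 scale, exact permutation p = 0.00794, adjusted p = 0.0278). At day 1 the difference of 2.03 did not pass (adjusted p = 0.0758). Day 1 replicate 1, with 4 and 2 UMIs, lay inside the untreated range, and without it the difference was 2.69 (adjusted p = 0.0208), and day 3 was below day 1 by a difference of -1.67 (adjusted p = 0.0208).

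For Eef1a1 to Eef2 the log2 ratio was 0.24, 0.60, 0.65, 0.85 and 0.57 in untreated libraries, -1.28, 0.43, -0.54, 0.27 and 0.38 at day 1 and 0.31, -0.49, -0.44, 0.12 and 0.03 at day 3. It was lower at day 3 (difference -0.68 on the log2 scale, exact permutation p = 0.0159, adjusted p = 0.0417), with 1 day 3 library inside the untreated range, and the difference of -0.73 at day 1 did not pass (adjusted p = 0.0758). The ratio of the scaffold genes Eif4g1 and Eif4g3 passed in no comparison (adjusted p = 0.0741 at day 1), but without day 1 replicate 1 it was higher at day 1 by 0.69 (adjusted p = 0.0208) and lower at day 3 than at day 1, with a difference of -0.57 (adjusted p = 0.0417). Eif1 and Eif1b kept a log2 ratio with means of 2.93 ± 0.29 in untreated, 3.20 ± 0.28 in day 1 and 3.00 ± 0.19 in day 3 libraries (SD, n = 5 each), and no difference passed the exact test (adjusted p = 0.333, 0.7 and 0.333). In refits without 1 library, 4 libraries were compared with 5 over 126 assignments, and several calls were lost. The Eif4a1 to Eif4a2 ratio lost its call in 4 of 10 such refits at day 1 and 8 of 10 at day 3. Eif4ebp1 to Eif4ebp2 lost its call in 4 of 10 at day 1 and in 4 of 10 for day 3 against day 1. Eif1a to Eif1ax lost its call at day 3 in 5 of 10. Eif2s3x to Eif2s3y lost its call in 2 of 10 at day 3 against untreated and in 2 of 10 against day 1. Eef1a1 to Eef2 lost its call at day 3 in 9 of 10.

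**Figure D3:**
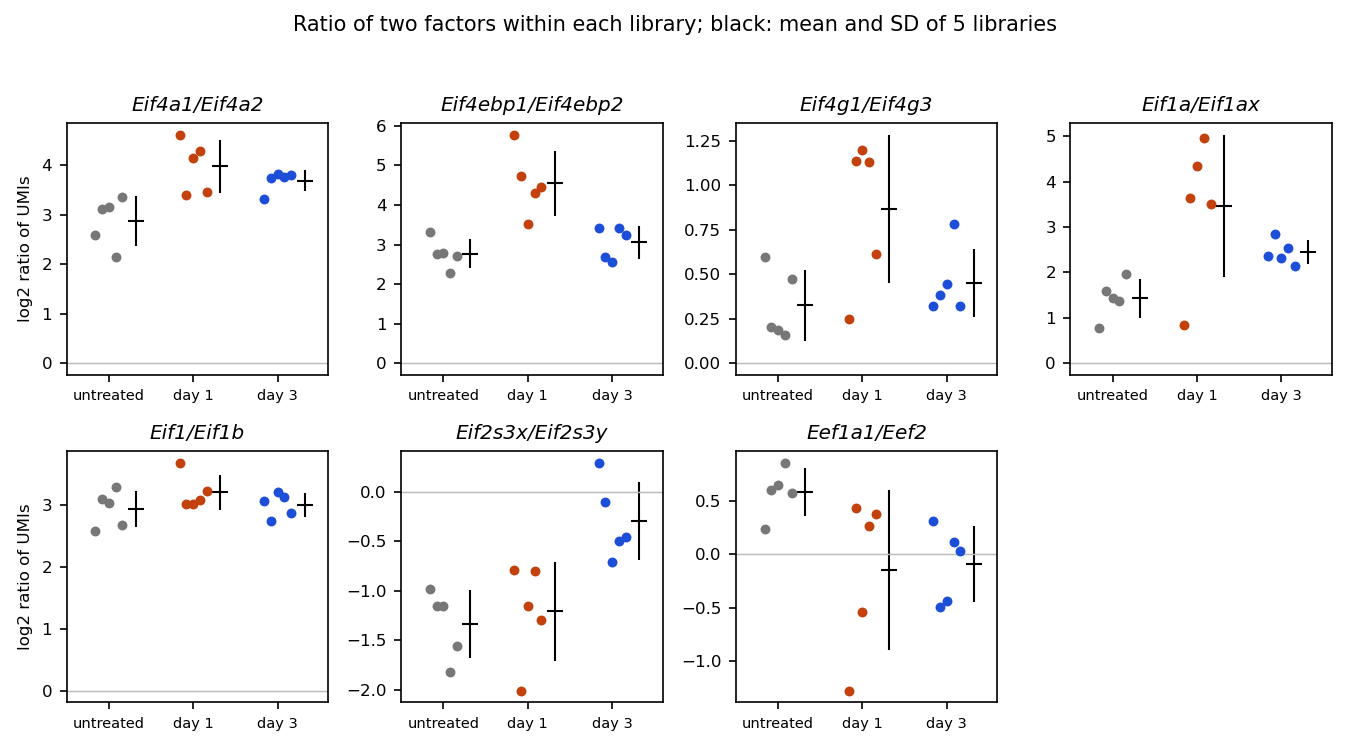
Log2 ratio of UMIs of the first to the second gene (y axes) for 7 pairs of factors in each library of the untreated, day 1 and day 3 groups (x axes). Points are libraries, black marks are the mean and SD of 5 libraries, and the grey line is a ratio of 1. Eif4ebp1/Eif4ebp2 stands apart at day 1 and Eif2s3x/Eif2s3y at day 3.

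Of the members, 11 are known for TOP mRNAs: Eef1a1, Eef1b2, Eef1d, Eef1g, Eef2, Eif3a, Eif3e, Eif3f, Eif3h, Eif4b and Eif2s3x. At day 1, 1 of them was higher and 2 lower than in untreated cells. At day 3, 5 were higher than in untreated cells (Eef1b2, Eif3f, Eef1g, Eef2 and Eif3h) and 4 were higher than at day 1 (Eif4b, Eif3f, Eef1b2 and Eif3h). Over all genes, 23.1% were higher and 23.1% lower at day 1, and 9.2% were higher and 9.25% lower at day 3 than in untreated cells. Between day 3 and day 1, 16.1% of all genes were higher and 16.6% lower at day 3. None of the 11 was called lower at day 3 in either comparison by the edgeR fit of all 15 libraries. In that fit 1 and 0 were lower at an unadjusted p under 0.05, and DESeq2 called 0 and 0. limma voom and the fit of only the groups compared each called Eif3e lower at day 3 against untreated (adjusted p = 0.0131 and 0.00728). At day 1, limma voom and edgeR with total counts each called 4 lower, adding Eif4b and Eif3a to Eef1a1 and Eif3e. With total counts, 3650 of all 10207 genes tested were lower at day 1, and 661 were higher at day 3 against untreated. The median log2 change was -0.06 at day 1, 0.38 at day 3 and 0.30 between day 3 and day 1, and in the other 46 tested factors it was 0.01, -0.06 and -0.10. At day 3 against untreated, 2 of the 11 were called higher without untreated replicate 4, 3 without untreated replicate 5, and 0 with total counts. Against day 1, 2 were called without day 1 replicate 2 or day 3 replicate 2, 4 or 5, and 2 with the replicate number as a block.

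The direction of sums over these genes depended on scaling. On the TMM scale, the 11 genes summed to 5096 to 5792 CPM in untreated, 4762 to 5605 CPM in day 1 and 6199 to 6832 CPM in day 3 libraries, so day 1 overlapped untreated and day 3 lay above both. The other 49 factors summed to 4399 to 4588, 5189 to 5733 and 4664 to 5158 CPM, so every day 1 library was above every other library and every day 3 library above every untreated one. As a percent of all UMIs, the 11 genes took 0.555% to 0.634% in untreated libraries, 0.410% to 0.528% at day 1 and 0.627% to 0.700% at day 3. By that measure every day 1 library was below every other library and day 3 overlapped untreated. The other factors took 0.486% to 0.502%, 0.450% to 0.511% and 0.472% to 0.525%, with overlap between all groups. The share of factor UMIs held by the 11 genes does not depend on scaling. The 11 genes held 54.8% ± 1.42 of all factor UMIs in untreated, 49.9% ± 1.57 in day 1 and 57.3% ± 1.43 in day 3 libraries (SD, n = 5 each), and every day 1 library was below every other library. Without Eef1a1 in either sum, the shares were 45.1% ± 1.19, 43.3% ± 0.933 and 50.6% ± 2.10. Day 3 was then above all untreated libraries, which it overlapped with Eef1a1 included, and day 1 overlapped them, which it did not with Eef1a1 included.

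**Figure D4:**
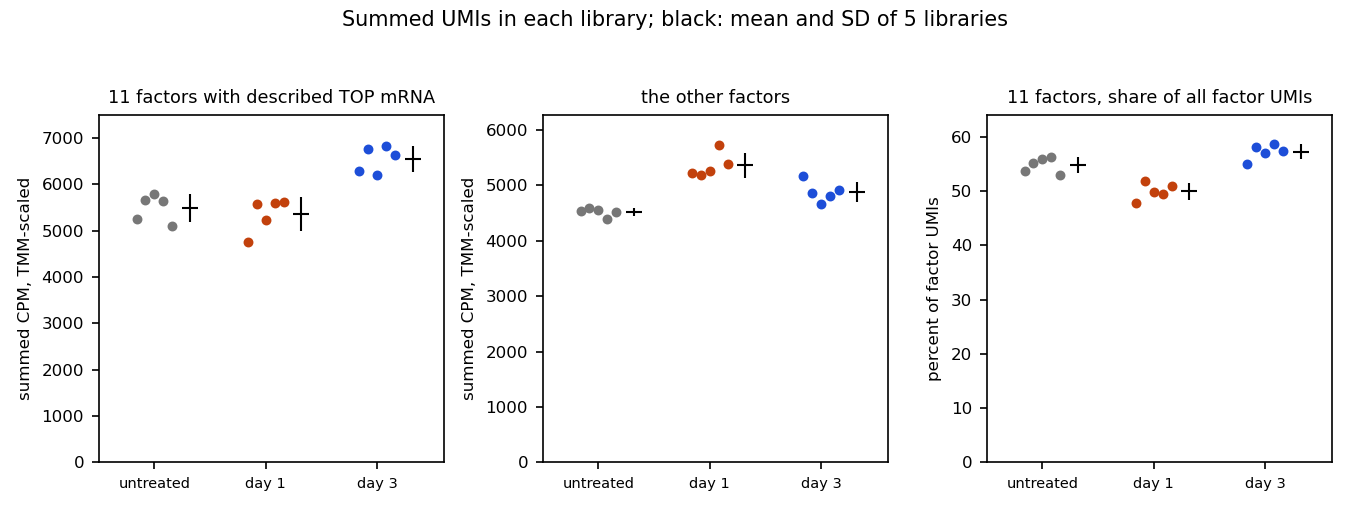
Summed CPM (TMM-scaled) of the 11 factors with described TOP mRNAs and of the other factors, and the 11 genes as a percent of all factor UMIs (y axes from 0), by group (x axes). Points are libraries and black marks are the mean and SD of 5. On this scale the 11 genes overlap between day 1 and untreated and the other factors are highest at day 1, which does not hold as a percent of all UMIs, and the 11 genes' share of factor UMIs is lowest in all 5 day 1 libraries.

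Genes around the factors gave the following, list by list. Over all genes tested, 23.1% were called higher and 23.1% lower at day 1, and 9.2% higher and 9.25% lower at day 3 against untreated. Between day 3 and day 1, 16.1% were higher and 16.6% lower. These shares are the background for every list that follows. Transcripts induced when eIF2 is phosphorylated, the integrated stress response list, were called higher in 10 and lower in 4 of 22 at day 1, higher in 7 and lower in 2 at day 3, and higher in 2 and lower in 8 between day 3 and day 1. Its median log2 change was 0.71, 0.08 and -0.39. Slc3a2, a subunit of amino acid transporters, was 475 CPM at day 1, against 158 CPM in untreated cells (log2 change 1.59 ± 0.16 (SE), adjusted p = 8.54e-08). Cebpb, a transcription factor, had a log2 change of 2.21 ± 0.24 (SE) at day 1 and 1.03 ± 0.23 at day 3 (adjusted p = 2.52e-07 and 0.004). Vldlr, a lipoprotein receptor on the list, fell by 1.91 on the log2 scale at day 1 (adjusted p = 2.16e-05). Atf4, the central transcription factor of this response, averaged 1011 CPM at day 1, against 569 CPM in untreated cells (adjusted p = 3.92e-05). The list's direction was mixed within the response itself, since Atf5 was lower at day 1 (347 CPM, against 635 CPM). Among eIF2 phosphatase genes and regulators, 2 of 5 were higher and 2 lower at day 1 (median 0.35), 2 were higher at day 3, and 1 was higher at day 3 than at day 1. Impact, which restrains the kinase GCN2, was 54.1 CPM at day 1, against 24.2 CPM in untreated cells (adjusted p = 1.82e-05), and Dnajc3, an inhibitor of PERK, 36.3 CPM, against 68.6 CPM (adjusted p = 2.02e-04).

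Aminoacyl-tRNA synthetases charge the tRNAs that eEF1A delivers. Of 22 tested genes of that list, which shares members with the stress response list and also holds the mitochondrial Fars2, 8 were higher at day 1 (median log2 change 0.26), 2 were lower at day 3 (median -0.23), and 10 were lower at day 3 than at day 1 (median -0.42). Kars averaged 68.8 CPM in untreated, 139.7 CPM in day 1 and 65.6 CPM in day 3 libraries, with log2 changes of 1.01 ± 0.16 (SE) at day 1 and -1.08 ± 0.15 for day 3 against day 1 (adjusted p = 2.03e-05 and 1.49e-05). The shares over all genes were 23.1% higher and 23.1% lower at day 1, and 9.2% higher and 9.25% lower at day 3 against untreated. They were 16.1% higher and 16.6% lower at day 3 against day 1. In the mTORC1 list, 4 of 18 were higher and 2 lower at day 1 (median 0.16), 3 were higher at day 3 (median 0.05), and 4 were higher and 2 lower at day 3 than at day 1 (median 0.04). Ddit4 (REDD1), an inhibitor of mTORC1, was 174 CPM at day 1, against 18.4 CPM in untreated cells (log2 change 3.23 ± 0.50 (SE), adjusted p = 1.18e-04). Deptor, another inhibitor, was 3.58 CPM at day 1, against 16.8 CPM (adjusted p = 8.81e-06), and Sesn1, a p53 target that restrains mTORC1, 24.2 CPM, against 44.4 CPM (adjusted p = 4.60e-04).

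Among eIF4E kinases and poly(A)-binding proteins, Mknk2, a kinase of eIF4E, was 258 CPM at day 1, against 121 CPM in untreated cells (adjusted p = 1.51e-04), and Larp4, which binds poly(A) tails, 2.89 CPM, against 8.89 CPM (adjusted p = 0.00115). Those were the day 1 calls in 7 tested genes (median 0.11), and 2 were higher and 1 lower at day 3 (median 0.43). Of 10 termination and recycling genes, 3 were higher and 3 lower at day 1 (median -0.04), 2 were lower at day 3 (median -0.39), and 2 were lower at day 3 than at day 1 (median -0.08). Pelo, a ribosome rescue factor, was 52.01 CPM at day 1, against 24.5 CPM in untreated cells, and fell to 19.9 CPM at day 3 (adjusted p = 1.74e-05 at day 1, and 1.50e-06 for day 3 against day 1). Abce1, which splits terminated ribosomes, was 26.3 CPM at day 1 and 26.7 CPM at day 3, against 49.4 CPM in untreated cells (adjusted p = 0.00104 and 0.00213). Of 8 genes that make hypusine on eIF5A or diphthamide on eEF2, 3 were higher and 1 lower at day 1 (median 0.39), and 1 was higher and 1 lower at day 3 than at day 1 (median -0.28). They include Dhps and Dohh, the enzymes that make hypusine, at 24.4 CPM, against 15.7 CPM, and 55.9 CPM, against 38.9 CPM (adjusted p = 0.00713 and 0.00397). Of 7 mitochondrial translation factors, 1 was lower at day 1 (median 0.02) and at day 3 (median -0.11): Gfm1 was 12.7 CPM at day 1 and 12.6 CPM at day 3, against 18.5 CPM in untreated cells (adjusted p = 0.0445 and 0.0429).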

How the data were processed

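RNA from sorted thymic fibroblasts was read by bulk MARS-seq in 15 libraries, 5 in each of 3 groups. The values are UMI counts per gene as the authors deposited them, not normalised. The submitters' processing notes name the build mm10, STAR 2.5.2b, HTSeq, DESeq2, cutadapt and bcl2fastq; how strand was treated is not given in the sources used here. Another 30 per-sample columns of the table were not used. Because 3′ ends are counted, levels were not divided by length.

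Genes passing edgeR's expression filter (10207 of 12763) were fitted with edgeR 4.0.16 (TMM, robust quasi-likelihood test, all 15 libraries in 1 fit, Benjamini-Hochberg adjustment over all genes, threshold 0.05). Depth was 740169 to 3750214 UMIs, which leaves single-library values of the lowest genes resting on a few molecules. Ratios of 7 pairs were compared by exact permutation, with an offset of 0.5. The edgeR test of day 1 against untreated was run on simulated counts with known changes and the same spread for all genes. Alternatives were RLE scaling, total counts, DESeq2 1.42.0, limma 3.58.1 voom, 2 other filters, only the groups compared, a replicate block and each library left out.

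Library values and full statistics were given by rule for the called members of smallest p in each comparison, at most 2 a role and 10 in all, plus Eef1a1, Eef2, Eif4a1, Eif4a2, Eif4ebp1, Eif4g1, Eif5a and Eif6. Each surrounding list was given by its counts and up to 3 called genes of smallest p a comparison. Values for Eif1b, Eif2s3x, Eif3e and Atf5 were added after they had been seen. Members and lists were chosen with earlier results of these data known. No 2 libraries held identical counts. Promoter letters came from RefSeq (GRCm38.p6) and positions from GENCODE vM21.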

Additional observations from a re-analysis of the deposited data

Results flagged for a closer look

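In each group of 5 libraries, a library was picked out when its gap to the nearest other library, divided by the range of the group, was above Dixon's critical value of 0.71. This was done for 99 groups of values and picked out 5, and chance picks out about 1 in 20. Eif3d in day 1 replicate 1 was at 260 CPM, where the other 4 day 1 libraries were at 140 to 174 CPM; this is the shallowest library. Eif2d in day 3 replicate 5 was at 52.6 CPM, where the others were at 35.5 to 37.1 CPM. Eif2b5 in day 3 replicate 2 was at 14.2 CPM, where the others were at 18.6 to 19.8 CPM. The log2 ratio of Eif4a1 to Eif4a2 was 3.31 in day 3 replicate 1 and 3.73 to 3.83 in the others. The log2 ratio of Eif4g1 to Eif4g3 was 0.781 in day 3 replicate 4 and 0.322 to 0.446 in the others.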

How the results depend on the processing

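With total counts as library sizes, 5 factors were higher and 19 lower at day 1, 1 higher and 7 lower at day 3, each against untreated, and 13 higher and 6 lower at day 3 against day 1. Over all 10207 genes tested, that scaling called 1500 higher and 3650 lower, 661 and 1433, and 2308 and 1201 in the same order. limma voom called 12 higher and 8 lower at day 3 against untreated, and the fit of only day 3 and day 1 called 7 lower. Leaving out 1 library gave 12 to 14 higher and 6 to 9 lower at day 1, 3 to 8 higher and 3 to 4 lower at day 3 against untreated, and 5 to 9 higher and 7 to 13 lower at day 3 against day 1. The lowest of these, 3, 5 and 7, came without untreated replicate 4, day 1 replicate 2 and day 3 replicate 2. The counts of TOP mRNA genes under these alternatives, and their sums on the TMM scale, were added after seeing the data. The causes were not tested. No called value changed its sign under any alternative.

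The labels number the replicates alike in each group and do not say whether same-numbered libraries belong together. Deviations of same-numbered libraries correlated between -0.355 and 0.168. Libraries with different numbers were not compared, so these values cannot decide whether the numbers pair the libraries. With the replicate number as a block, 13 factors were higher and 7 lower at day 1, 6 and 4 at day 3, and 6 and 11 at day 3 against day 1. The exact paired sign-flip test of ratios cannot go below p = 0.0625. Under this replicate block the differences therefore lost their calls at the same values: 1.10 and 0.81 for Eif4a1/Eif4a2 at day 1 and day 3, 1.78 at day 1 and -1.50 at day 3 against day 1 for Eif4ebp1/Eif4ebp2, 1.02 for Eif1a/Eif1ax at day 3, 1.04 and 0.91 for Eif2s3x/Eif2s3y at day 3 against untreated and against day 1 (adjusted p = 0.146 for each), and -0.68 for Eef1a1/Eef2 at day 3 (adjusted p = 0.239).

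Without 1 library, the differences at day 1 ranged from 0.92 to 1.25 for Eif4a1/Eif4a2, 1.48 to 2.04 for Eif4ebp1/Eif4ebp2, 0.46 to 0.69 for Eif4g1/Eif4g3 and 1.66 to 2.69 for Eif1a/Eif1ax. At day 3 they ranged from 0.63 to 0.93 for Eif4a1/Eif4a2, 0.85 to 1.15 for Eif1a/Eif1ax, 0.90 to 1.15 for Eif2s3x/Eif2s3y and -0.78 to -0.58 for Eef1a1/Eef2. For day 3 against day 1 they ranged from -1.75 to -1.19 for Eif4ebp1/Eif4ebp2, -0.57 to -0.33 for Eif4g1/Eif4g3, -1.67 to -0.64 for Eif1a/Eif1ax and 0.71 to 1.02 for Eif2s3x/Eif2s3y. Calls lost this way had exact permutation p-values that reached 0.0556 to 0.0833 after adjustment. Depth limits the lowest genes, such as Eif1ax with 13 UMIs in all day 1 libraries.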

Other observations

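Some genes that share a chromosome or exon sequence with the factors add values. Ddx3x, an X-linked RNA helicase gene that acts in initiation, averaged 50.6 ± 21.0 CPM at day 1 and 75.7 ± 10.7 CPM in untreated libraries (SD, n = 5 each; log2 change -0.55, adjusted p = 0.0287 by edgeR). At day 3 it averaged 52.6 ± 7.53 CPM, and the change of -0.52 did not pass (adjusted p = 0.0641). Banf1, a chromatin factor gene on the strand opposite to Eif1ad, changed by 0.57 on the log2 scale at day 1 against untreated (adjusted p = 0.00978). Aimp2, a scaffold of the multisynthetase complex that overlaps Eif2ak1 on the opposite strand, changed by -0.65 at day 3 against day 1 (adjusted p = 0.00413). Naprt, which shares exon sequence with Eef1d on the same strand, changed by 0.74 at day 1 (adjusted p = 0.00115).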
